A study of Mus musculus with 6 samples.

Results

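The cyclin-dependent kinase inhibitors are 7 small proteins that hold back the kinases of the cell cycle, and their transcripts were followed here in Jak2-mutant mouse LSK cells. The genes were taken by symbol, as Cdkn1a, Cdkn1b, Cdkn1c, Cdkn2a, Cdkn2b, Cdkn2c and Cdkn2d, and all 7 were found among the 48395 symbols of the count tables. Of these, 6 passed the filter on low counts, as did 16739 genes in all, and Cdkn2b did not. RNA came from LSK cells (lineage-negative, Sca-1-positive, c-Kit-positive), the sorted marrow fraction with blood stem cells and the earliest progenitors. Marrow of 5-fluorouracil-primed Mx1Cre; Jak2V617F/+ mice, in which the Mx1 promoter drives Cre, was transduced with lentivirus carrying either the empty vector or Hmga2. It was then transplanted into C57BL/6 recipients irradiated with 2 doses of 550 cGy and collected 32 weeks later. Both groups of 3 libraries, vector and labelled Hmga2, thus share the Jak2 allele, the 5-fluorouracil, the transduction, the irradiation and the time. The sources used here do not say which share of LSK cells carried virus, how many mice made up a library or how old they were. The labels call the libraries of a group biological replicates, and p-values below measure the spread between these libraries.

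The inhibitors fall into 2 families. Cdkn1a, Cdkn1b and Cdkn1c encode the CIP/KIP proteins p21, p27 and p57, which bind cyclin-kinase complexes, above all those of cyclin E and cyclin A with Cdk2. Cdkn2a, Cdkn2b, Cdkn2c and Cdkn2d encode the INK4 proteins p16, p15, p18 and p19, which bind Cdk4 and Cdk6 and keep D-type cyclins away from them. In blood stem cells p57 and p27 are known to help maintain quiescence, p21 is a classic p53 target, and p18 restrains stem cell self-renewal. Cdkn2a also gives rise to Arf, a protein from another reading frame that protects p53, and Hmga2 is known to lower Cdkn2a in neural stem cells.

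Total counts per library lay between 24818011 and 35471806, and levels are given as CPM, counts divided by the library size, here scaled by TMM factors. The gene that the label names, Hmga2, did not stand out in the libraries that carry its label, at 2.63, 6.63 and 5.91 CPM against 5.96, 5.04 and 7.03 CPM in the vector libraries. The fitted log2 difference was -0.25 (95% interval -1.08 to 0.58, adjusted p = 0.934, edgeR), and the sources used here do not say if the count of this gene takes in the introduced copy. An antisense transcript with 2051 reads over all libraries overlaps this gene. Directions below are therefore those of a label, not of raised Hmga2. The libraries also differed in makeup. Summed B and plasma cell markers (11 of the 12 listed symbols were in the count tables) ranged from 702 to 11019 CPM in the vector libraries and from 569 to 3556 CPM in the others. Vector replicates 1 and 3 and labelled Hmga2 replicate 2, each with Igha above 1000 CPM, are called immunoglobulin-rich below. Granulocyte markers summed to between 4427 and 9398 CPM in the vector libraries and between 3006 and 4888 CPM in the libraries labelled Hmga2. Erythroid markers, summed, were at 1635 to 2124 CPM and 1132 to 1668 CPM in the same order; 8 of 10 were negative on the log2 scale (median -0.67), the groups did not overlap for 4, and DESeq2 called 3 (Rhd, Blvrb and Klf1) where edgeR called 0. All 10 granulocyte markers were negative (median -1.30), 7 of them without overlap, and DESeq2 called 4. Y-linked transcripts, summed, were at 192 and 127 CPM in labelled Hmga2 replicates 1 and 3 and between 5.27 and 21.5 CPM in the other 4 libraries. The sort and stem cell markers, among them Kit and Ly6a (Sca-1), were present in every library, at 1150 to 1347 CPM and 1432 to 1499 CPM in sum. These sums did not overlap, being higher in the libraries labelled Hmga2, while the groups overlapped for each marker taken singly. On the log2 scale 7 of 9 were positive (median 0.20) and 2, Ly6a and Procr, negative. All 4 glia markers were negative (median -1.88, 2 without overlap), and DESeq2 called 1. The 6 tested megakaryocyte markers were all positive (median 0.26), with groups that overlapped. Stroma markers had 3 positive and 2 negative values, 2 without overlap, and DESeq2 called 1. Summed macrophage markers ran from 106 to 247 CPM in the vector libraries and from 98.7 to 274 CPM in the others. In bulk RNA, fewer cells of a type and less RNA per cell cannot be told apart.

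Promoter sequence is shown for the gene whose groups did not overlap, Cdkn1b, and for the gene that Hmga2 is known to lower elsewhere, Cdkn2a, whose p16 and Arf transcripts start at separate sites. The sequences are RefSeq's on GRCm38.p6, the bases upstream of each start that lie outside GENCODE exons of the gene, read 5′ to 3′. Capitals mark runs of 6 or more A or T bases, since Hmga2 binds AT-rich DNA through its AT hooks.
Cdkn1b (chr6:134920151-134920400, plus strand): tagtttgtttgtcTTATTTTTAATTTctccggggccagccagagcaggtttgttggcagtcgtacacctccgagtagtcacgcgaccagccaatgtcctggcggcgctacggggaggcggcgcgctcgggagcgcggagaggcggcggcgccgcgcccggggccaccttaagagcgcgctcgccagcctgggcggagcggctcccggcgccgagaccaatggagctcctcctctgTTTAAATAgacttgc
Cdkn2a, far start (chr4:89294654-89294869, minus strand): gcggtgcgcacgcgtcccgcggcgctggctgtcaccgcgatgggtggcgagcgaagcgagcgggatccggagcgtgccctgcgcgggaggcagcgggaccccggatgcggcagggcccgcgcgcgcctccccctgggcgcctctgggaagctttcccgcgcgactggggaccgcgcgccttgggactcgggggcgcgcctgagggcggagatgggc
Cdkn2a, near start (chr4:89282193-89282442, minus strand): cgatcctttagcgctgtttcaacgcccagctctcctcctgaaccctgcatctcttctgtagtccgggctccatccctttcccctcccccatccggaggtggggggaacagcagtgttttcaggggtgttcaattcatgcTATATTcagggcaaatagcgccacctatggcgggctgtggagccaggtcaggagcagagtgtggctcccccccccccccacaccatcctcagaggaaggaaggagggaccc
In the 250 bases before each start, Cdkn1b held 2 such runs, the near start of Cdkn2a held 1 and the far start held 0. Among members not shown, a start of Cdkn2c held 3 and that of Cdkn2b held 2, and the other starts held 1 or 0. Of 32841 promoters of that length 66.9% held at least 1. Bases A and T made up 35.6%, 40% and 21.6% of these windows (Cdkn1b, near start, far start), against a median of 47.6% over all promoters. A match is a description of letters, and binding was not measured.

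Cdkn1b, which encodes p27, was the 1 member higher in every library labelled Hmga2 than in every vector library. The gene (chromosome 6, positions 134920401 to 134925513 on mm10, plus strand) was at 49.6, 48.5 and 41.3 CPM in vector replicates 1, 2 and 3. It was at 70.9, 57.4 and 53.9 CPM in labelled Hmga2 replicates 1, 2 and 3. The lowest of the latter lay above the highest of the former, and between 987 and 2507 reads per library stood behind these values. The means were 46.5 ± 4.49 and 60.7 ± 8.96 CPM (SD, n = 3 each) and the log2 fold change was 0.39 ± 0.13 (SE), 95% interval 0.08 to 0.69. This is a 1.31-fold difference, with an interval from 1.05 to 1.62.

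Over all genes the Cdkn1b difference did not pass the threshold in edgeR (adjusted p = 0.855), nor in DESeq2 (adjusted p = 0.463). An exact two-sided permutation test of its 6 CPM values gave p = 0.1, the smallest value that 3 libraries against 3 allow. Groups did not overlap for 11.2% of all tested genes, and for 5.28% with the libraries labelled Hmga2 higher. An unadjusted p under 0.05 was reached by 5.59% of genes, by 2.23% with the libraries labelled Hmga2 higher. A count of 1 gene among 6 tested members is read against these shares and shows nothing particular to the inhibitors. Since the groups do not overlap, any split that holds both labels must give the same direction, so the next values are a description only. In the immunoglobulin-rich libraries Cdkn1b was at 57.4 CPM in the 1 labelled Hmga2 and a mean of 45.4 CPM in the vector ones. In the other 3 libraries it was at a mean of 62.4 CPM in those labelled Hmga2 and 48.5 CPM in the vector one. The part of the lower erythroid and granulocyte transcripts, and of the higher sum of sort and stem cell markers, in the Cdkn1b values was not tested. The same holds for the other marker lists described above.

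**Figure D1:**
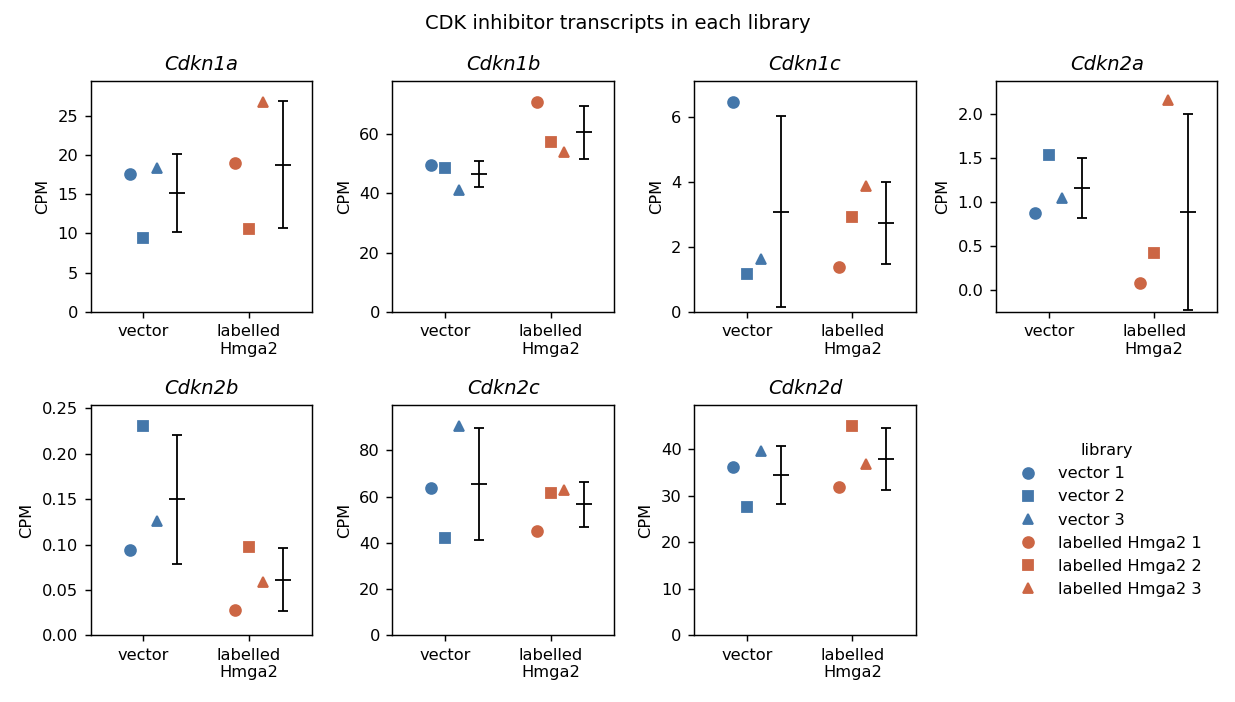
Each panel plots 1 CDK inhibitor gene, with CPM on the y axis (each panel has its own scale) and the vector libraries and libraries labelled Hmga2 on the x axis; symbols are replicates 1 to 3, and bars to the right give the mean and SD (n = 3), which reaches below 0 for Cdkn2a. Cdkn1b is the panel in which the groups do not overlap, with 41.3 to 49.6 CPM against 53.9 to 70.9 CPM.

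Cdkn1a, encoding p21, varied more within the groups than between them. The gene (chromosome 17, positions 29090976 to 29100727, plus strand) stood at 17.6, 9.46 and 18.4 CPM (vector replicates 1 to 3) and 19, 10.6 and 26.8 CPM (labelled Hmga2 replicates 1 to 3). Replicate 2 was the low library of each group, and labelled Hmga2 replicate 3 was the highest of all. The log2 fold change was 0.31 ± 0.38 (SE, 95% interval -0.58 to 1.20, adjusted p = 0.919, edgeR), so the interval runs from 1.49-fold lower to 2.3-fold higher. Without labelled Hmga2 replicate 3 it was -0.03, and with a term for Y-linked transcripts -0.11. Among immunoglobulin-rich libraries Cdkn1a was at 10.6 CPM in the library labelled Hmga2 and 18 CPM in the vector ones, and among the others at 22.9 and 9.46 CPM, which is the opposite direction. This split was not tested.

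Cdkn1c, encoding p57, was scarce, and vector replicate 1 stood apart. The gene (chromosome 7, positions 143458339 to 143461050, minus strand) lies in an imprinted domain and is expressed from the maternal copy. It stood at 6.46, 1.15 and 1.63 CPM (vector replicates 1 to 3) and 1.38, 2.93 and 3.88 CPM (labelled Hmga2 replicates 1 to 3), from 30 to 205 reads. The group means were 3.08 ± 2.94 and 2.73 ± 1.26 CPM (SD, n = 3 each), and the log2 fold change was -0.18 ± 0.69 (SE, adjusted p = 0.98, edgeR). Without vector replicate 1 it was 0.97 ± 0.48 (SE, adjusted p = 0.486).

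Genes linked to stem cell quiescence were often, but not always, highest in the same library as Cdkn1c. Of 18 such genes 10 were highest in vector replicate 1 and 11 lowest in vector replicate 2, while Meis1, Tek and Thy1 were among those highest elsewhere. Meis1, with the smallest unadjusted p of the list, was at 111 ± 23.3 CPM (vector) and 153 ± 19.3 CPM (labelled Hmga2, SD, n = 3 each). Its groups did not overlap (adjusted p = 0.855, edgeR), as for 2 of the 18 and 11.2% of all genes. Mecom, a transcription factor gene of quiescent stem cells, stood at 37.6, 8 and 13.9 CPM (vector replicates 1 to 3) and 22.2, 21.8 and 31.8 CPM (labelled Hmga2 replicates 1 to 3). For Procr, a surface marker of stem cells, the vector values were 20.9, 7.11 and 8.83 CPM and the others 9.78, 14 and 12.8 CPM. Vector replicate 1 was thus the highest and vector replicate 2 the lowest of the 6 libraries for Cdkn1c, Mecom and Procr, and the last 2 were picked with their values in view. The part of stem cell share in the Cdkn1c values was not tested.

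Cdkn2a was low in 2 of the 3 libraries labelled Hmga2 and highest of all in the other one. The gene (chromosome 4, positions 89274471 to 89294653, minus strand) stood at 0.882, 1.54 and 1.05 CPM in vector replicates 1, 2 and 3, from 28, 40 and 25 reads. In labelled Hmga2 replicates 1, 2 and 3 it was at 0.0848, 0.423 and 2.16 CPM, from 3, 13 and 74 reads. Reads per group were 93 and 90 in sum. The log2 fold change was -0.37 ± 0.92 (SE), 95% interval -2.54 to 1.79, adjusted p 0.964 by edgeR, which spans 5.82-fold lower to 3.47-fold higher.

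That Cdkn2a value depended on single libraries. Without labelled Hmga2 replicate 3 the log2 fold change was -2.19 ± 0.70 (SE) and the groups did not overlap, as for 19.1% of all genes in that fit, and the adjusted p was 0.981 (edgeR). Without labelled Hmga2 replicate 1 it was 0.17. The counts are per gene, so p16 and Arf transcripts cannot be told apart. Summed macrophage markers were also lowest in labelled Hmga2 replicate 1 and highest in labelled Hmga2 replicate 3, at 98.7 and 274 CPM. In vector replicates 2 and 3 they were at 213 and 247 CPM, the reverse of the order of Cdkn2a. These markers were set beside Cdkn2a with the values in view, and the part of macrophage RNA was not tested.

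Cdkn2b, the neighbour of Cdkn2a at a distance of 11.6 kb, was at or near the limit of detection. It had 3, 6 and 3 reads in the vector libraries and 1, 3 and 2 reads in the libraries labelled Hmga2, or 0.0945, 0.231 and 0.126 CPM and 0.0283, 0.0976 and 0.0583 CPM. A floor of 3 reads corresponds to 0.0846 to 0.121 CPM here, so a difference was not detectable at this depth (exact two-sided permutation test of the CPM values, p = 0.2, smallest possible 0.1). The gene (chromosome 4, positions 89306299 to 89311039, minus strand) encodes p15, which TGF-beta signalling induces in many cells.

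Cdkn2c and Cdkn2d, encoding p18 and p19, were the abundant INK4 transcripts. Cdkn2c (chromosome 4, positions 109660876 to 109667189, minus strand) stood at 63.7, 42.3 and 90.7 CPM (vector replicates 1 to 3) and 45.3, 61.8 and 62.9 CPM (labelled Hmga2 replicates 1 to 3). Vector libraries were both the lowest and the highest, and the other group lay between them. The log2 fold change was -0.21 ± 0.27 (SE, 95% interval -0.85 to 0.43, adjusted p = 0.927, edgeR), and it was 0.10 without vector replicate 3.

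Cdkn2d (chromosome 9, positions 21288410 to 21291407, minus strand) stood at 36.1, 27.6 and 39.6 CPM (vector replicates 1 to 3) and 31.9, 45 and 36.7 CPM (labelled Hmga2 replicates 1 to 3). These ranges overlap. Its log2 fold change was 0.14 ± 0.18 (SE, 95% interval -0.28 to 0.55, adjusted p = 0.927, edgeR). Kri1, a ribosome biogenesis gene 0.4 kb from Cdkn2d on the same strand, was at 88.9 ± 3.09 and 89.2 ± 7.71 CPM (SD, n = 3 each).

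Both genes were lowest in vector replicate 2 and next lowest in labelled Hmga2 replicate 1, libraries with few B and plasma cell transcripts, and p18 is known to act in plasma cell differentiation. Cdkn2c averaged 77.2 CPM in the immunoglobulin-rich vector libraries against 42.3 CPM in the other vector library. In the libraries labelled Hmga2, however, it was at 61.8 CPM in the immunoglobulin-rich one and averaged 54.1 CPM in the others, of which replicate 3 reached 62.9 CPM. With a term for immunoglobulin-rich libraries the log2 fold change was 0.01 for Cdkn2c. For Cdkn2d it was 0.28 (adjusted p = 0.753, edgeR), with 45 against 37.9 CPM among immunoglobulin-rich libraries and 34.3 against 27.6 CPM among the others (labelled Hmga2, then vector). The part of B and plasma cell RNA in these values was not tested.

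**Figure D2:**
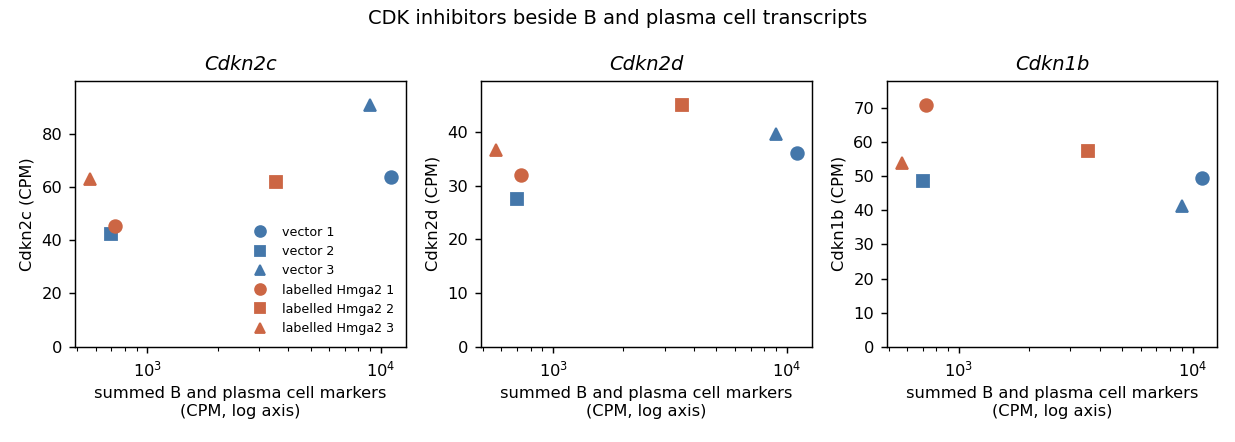
Cdkn2c, Cdkn2d and Cdkn1b in CPM (y axes, from 0) are plotted against the summed CPM of B and plasma cell markers (x axes, log scale), 1 point per library. The 3 immunoglobulin-rich libraries are at the right, from 3556 CPM upward; Cdkn2c is lowest at the left, in vector replicate 2 (42.3 CPM) and labelled Hmga2 replicate 1 (45.3 CPM), while labelled Hmga2 replicate 3, also at the left, is at 62.9 CPM.

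Across the 6 tested members, 3 were positive and 3 negative on the log2 scale (median -0.02, beside 0.00 over all genes tested). None passed the adjusted threshold in edgeR, where 0% of all genes did, nor in DESeq2, which called 0.353% of genes. At an unadjusted p under 0.05, edgeR and DESeq2 each had 1 member, Cdkn1b, and 5.59% and 4.34% of all genes. Intervals differed widely: that of Cdkn2d reached 1.46-fold higher and that of Cdkn1b 1.62-fold higher, whereas those of Cdkn1c and Cdkn2a include differences above 2-fold in either direction.

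**Figure D3:**
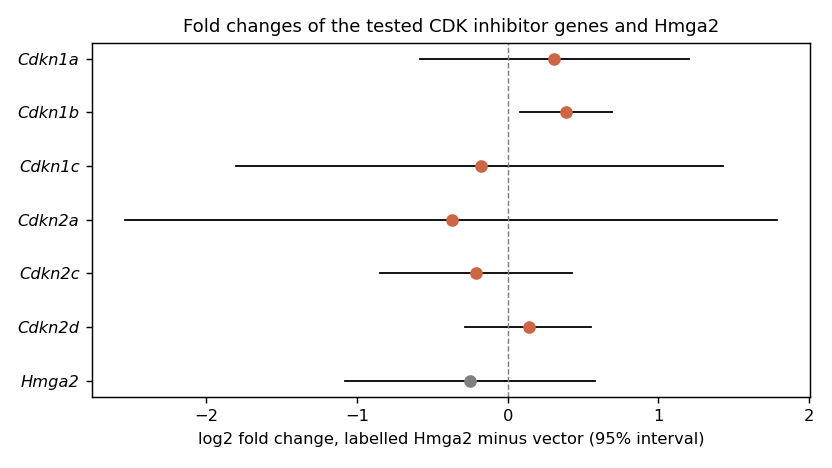
Points give the fitted log2 difference of labelled Hmga2 from vector (x axis) of the 6 tested CDK inhibitor genes and of Hmga2, in grey, and lines their 95% intervals from edgeR. The interval of Cdkn1b, from 0.08 to 0.69, is the 1 that does not include 0, before adjustment over all genes; that of Cdkn2a is the widest.

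Divided by exon length, the inhibitors kept nearly the same order in every library. Lengths were the union of annotated exons, from 1172 bases for Cdkn2a to 4552 bases for Cdkn1b. The order and the shares below depend on these lengths, and the transcripts behind the counts are not known. Cdkn2d, at 23 ± 3.83 CPM per kb over the 6 libraries (SD, n = 6), and Cdkn2c, at 22.8 ± 6.43 CPM per kb, did not differ beyond their spread and each came first in 3 libraries. Cdkn1b was the third in all 6 libraries at 11.8 ± 2.21 CPM per kb, and Cdkn1a the fourth at 4.78 ± 1.78 CPM per kb. Before division by length, however, Cdkn1b lay above Cdkn2d in every library. Their means were 46.5 and 34.4 CPM in the vector libraries and 60.7 and 37.9 CPM in those labelled Hmga2. Cdkn1c, at 1.42 ± 0.995, and Cdkn2a, at 0.872 ± 0.64 CPM per kb, changed places between libraries and were not separated by their spread. Cdkn2b was last in all 6 at 0.0761 ± 0.0503 CPM per kb. Of the summed inhibitor level per length, Cdkn2c and Cdkn2d made up 28.7% to 45.1% and 33.4% to 41.4%, and Cdkn1b made up 12.1% to 26.5%.

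**Figure D4:**
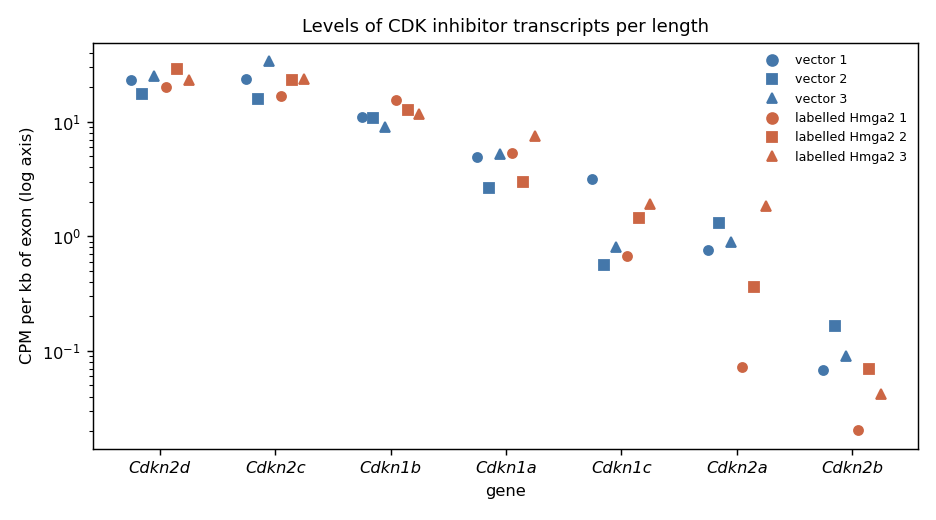
CPM per kb of exon (y axis, log scale) is shown for each CDK inhibitor gene in the order of its mean, 1 point per library, blue for vector and orange for labelled Hmga2. Cdkn2d and Cdkn2c lie together at the top, Cdkn2b is at the bottom, and Cdkn2a has the widest spread, from 0.0723 to 1.84 CPM per kb.

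The members did not vary as 1 group across the libraries. Of 15 pairs among the 6 tested genes, Pearson's r of log2 CPM over 6 libraries ran from -0.75 for Cdkn1b with Cdkn2a to 0.74 for Cdkn2c with Cdkn2d; these are descriptions, since the libraries also share their differences in makeup. Among at least 9961 named genes with a mean of at least 5 CPM, the one most like Cdkn1b was Mdm2, the ubiquitin ligase that degrades p53 (r = 0.996), and 302 genes had r of 0.9 or more. For Cdkn1c the closest were Tgm2, a transglutaminase gene (r = 0.993), and Cldn12 (r = 0.990). Tgm2 stood at 144, 27.9 and 37.8 CPM (vector replicates 1 to 3) and 36.9, 70.2 and 105 CPM (labelled Hmga2 replicates 1 to 3). For Cdkn1a they were Sulf2 (r = 0.988) and Txnrd1 (r = 0.984), for Cdkn2a Bag6 (r = 0.982) and Lilr4b (r = 0.970), for Cdkn2c Dtwd2 (r = 0.976) and Qdpr (r = 0.965), and for Cdkn2d Dscc1 (r = 0.978) and Hcls1 (r = 0.975). The highest r among so many genes over 6 libraries can come near 1 by selection alone, so these too are descriptions. A high r also does not mean a like size of change: Bag6 ran from 240 to 279 CPM and Cdkn2a from 0.0848 to 2.16 CPM.

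The partners that the inhibitors bind were measured in the same libraries; below, the first of 2 values or means is the vector group unless stated. Ccne1, encoding the cyclin E1 that p27 holds in check, was lower in every library labelled Hmga2, at 24.5, 22.5 and 22.6 CPM against 40, 43.4 and 34.8 CPM in the vector libraries. Its log2 fold change was -0.76 ± 0.11 (SE, adjusted p = 0.855 in edgeR; adjusted p = 5.06e-05 in DESeq2). Cdk6, a target of the INK4 proteins, had vector values of 52, 50.2 and 47.6 CPM and values of 93, 48.6 and 69.1 CPM in the others (adjusted p = 0.855, edgeR), and the groups overlapped. Of the 9 G1 cyclin and kinase genes, 5 were positive and 4 negative (median 0.04), and 0 passed in edgeR. Groups did not overlap for 1 of the 9, and this count and those of the lists below stand beside 11.2% of all genes. The part of the lower erythroid and granulocyte transcripts, and of the higher sum of sort and stem cell markers, in the values of Ccne1 and E2f4 was not tested. Nor was that of the other marker lists described above. The kinase genes Cdk4 and Cdk2 were at 577 ± 71 and 553 ± 12 CPM and at 134 ± 1.41 and 138 ± 5.11 CPM (SD, n = 3 each).

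Downstream of the inhibitors, pocket protein and E2F genes had 6 positive and 7 negative values of 13, with a median of -0.03, and 2 of 13 without overlap. E2f4, a repressor E2F of resting cells, was at 190 ± 12.6 and 154 ± 1.72 CPM, a log2 fold change of -0.31 with groups that did not overlap (adjusted p = 0.855, edgeR). Its partner Rbl2, the pocket protein p130, was at 73.9 ± 8.63 and 84.3 ± 4.81 CPM. Of 15 S phase genes 6 were positive and 9 negative (median -0.01), and of 20 mitosis genes 11 were positive and 9 negative (median 0.02). Groups did not overlap for 1 of the 15 and for 2 of the 20, shares near or below the 11.2% of all genes. These 2 were the mitosis genes Mki67 and Cenpf, with Mki67 at 528 ± 17.8 and 608 ± 54.4 CPM and Cenpf at 65.6 ± 1.77 and 80.7 ± 6.29 CPM (adjusted p = 0.855 for both, edgeR).

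Regulators of the CIP/KIP genes had values of both signs. Of 20 p53 pathway genes 11 were positive and 9 negative (median 0.07). Groups did not overlap for 3 with the libraries labelled Hmga2 higher and for 1 with them lower, beside 11.2% of all genes in either direction. Mdm2 was at 58.7 ± 2.81 and 66.5 ± 5.42 CPM and Aen, a p53-induced nuclease gene, at 108 ± 4.37 and 92 ± 6.69 CPM. Both were without overlap (adjusted p = 0.855 for both, edgeR). FoxO and TGF-beta signal factors had 7 positive and 6 negative values of 13 (median 0.02), and Smad3 and Tgfbr2, which carry TGF-beta signals, had the smallest p-values of that list, at 57.5 ± 6.28 and 75.3 ± 4.04 CPM and at 52.1 ± 0.488 and 64.3 ± 5.83 CPM, groups that did not overlap (adjusted p = 0.855 for both, edgeR). The machinery that degrades p27 protein had 3 positive and 5 negative values of 8 (median -0.04). Its F-box subunit Skp2 was at 39.5 ± 1.79 and 41 ± 2.36 CPM, and Ubac1, a subunit of the ligase that degrades p27 in G1, was at 74.1 ± 7.66 and 57.7 ± 2.38 CPM with groups that did not overlap (adjusted p = 0.855, edgeR). RNA levels do not show how much p27 protein is present.

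For the Cdkn2a and Cdkn2b locus, 16 of 21 tested Polycomb and other regulators were positive and 5 negative (median 0.09). Bmi1, the Polycomb repressor of this locus in stem cells, stood at 38.2, 33.6 and 33.6 CPM (vector replicates 1 to 3) and 47.2, 32.7 and 37.2 CPM (labelled Hmga2 replicates 1 to 3). Id1, which can repress Cdkn2a, was at 4.32 ± 1.11 and 2.37 ± 0.616 CPM, and its groups did not overlap (adjusted p = 0.855, edgeR). Imprinted growth genes had 3 positive and 6 negative values of 9 tested, of 14 found (median -0.04), and genes linked to stem cell quiescence 14 positive and 4 negative values of 18 (median 0.18). Other restraints on the cell cycle, such as Wee1 and Btg1, had 5 positive and 3 negative values of 8 (median 0.03). No member of any of these 11 lists passed in edgeR, and DESeq2 called Ccne1 alone.

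**Figure D5:**
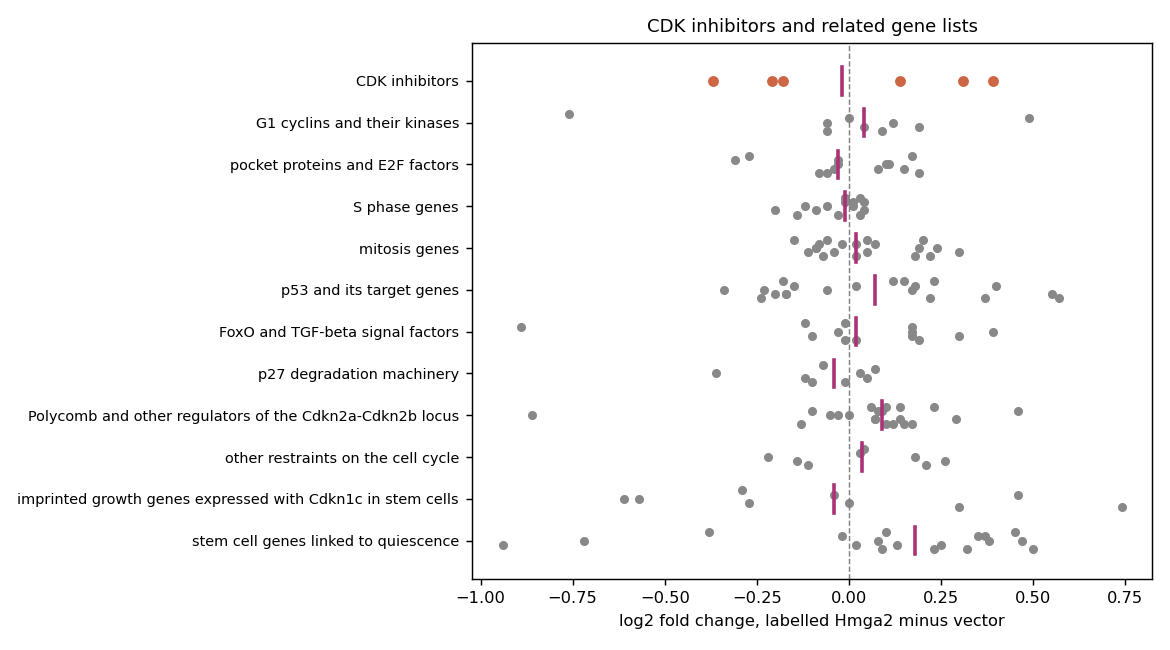
Each point is 1 gene at its log2 fold change (x axis, labelled Hmga2 minus vector), in rows by gene list, with the list's median as a purple bar; the 6 tested CDK inhibitors are in orange at the top. The medians lie between -0.04 and 0.18, and the lowest G1 cyclin and kinase gene, Ccne1, is at -0.76.

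Genes beside the inhibitors on the chromosomes gave no shared direction. Of the nearest 2 protein-coding genes on each side of each member, counted per member, 19 of 28 were tested and the groups did not overlap for 2, a share close to the 11.2% of all genes. These were Faf1, 9.4 kb from Cdkn2c, at 78.3 ± 5.35 and 69.2 ± 2.01 CPM, and Apold1, 56.2 kb from Cdkn1b, at 0.767 ± 0.0538 and 0.486 ± 0.0694 CPM, so Apold1 was lower where Cdkn1b was higher. Mtap, next to Cdkn2a, was at 80.2 ± 8.49 and 75.9 ± 7.82 CPM (SD, n = 3 each). Mtap counts for both Cdkn2a and Cdkn2b above, and those members count as neighbours of each other.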

How the data were processed

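RNA was sequenced from LSK cells in 6 libraries, grouped by their titles. The authors deposited expected counts (estimated counts per gene symbol, 1 file per library); the unit was judged from the values, of which 67.3% to 70.1% of those above 0 were whole within 1e-06. Per the submitters' processing notes, Partek 3.0, Bowtie2 and mm10 were used; the sources used here name no counter, annotation or strand setting. Antisense transcripts overlap Cdkn1a, Cdkn1c and Hmga2 in the annotation, so their reads are uncertain without strand.

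After rounding, the quasi-likelihood test of edgeR 4.0.16 was run in R 4.3.3 (filterByExpr, TMM, group alone in the model, Benjamini-Hochberg adjustment over 16739 genes, threshold 0.05) and, as the other tool, DESeq2 1.42.0; the steps were tested on simulated data. Standard errors and 95% intervals derive from the F statistic. At these depths 3 reads correspond to 0.0846 to 0.121 CPM, which covers counting error only. No 2 replicates agreed within counting error (chi-square over its degrees of freedom, 23.1 to 52.4). Positions and exon lengths are from GENCODE M21, on the same assembly as mm10; 6 of 7 members had RefSeq promoters.

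The members and lists were chosen with earlier results of these data known. Named genes were the members, Hmga2, up to 3 genes per list by smallest p, up to 2 most correlated genes per member (log2 CPM, prior count 2), and neighbours. Mecom, Procr, Thy1, Cdk2, Cdk4, Skp2 and Bmi1 were chosen after their values were seen. One gene that the rule names is not reported here. Alternatives are listed in the closing section; the fit with Y-linked transcripts and the split by immunoglobulin content were added after seeing the data.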

Additional observations from a re-analysis of the deposited data

How the results depend on the processing

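Over 14 alternatives Cdkn1b kept a positive log2 fold change in all 14, from 0.26 to 0.46, and no CDK inhibitor passed the adjusted threshold in any. With each library left out in turn, log2 fold changes ran from -0.03 to 0.59 for Cdkn1a, 0.26 to 0.46 for Cdkn1b, -0.57 to 0.97 for Cdkn1c, -2.19 to 0.17 for Cdkn2a, -0.45 to 0.10 for Cdkn2c, -0.01 to 0.25 for Cdkn2d and -0.49 to 0.06 for Hmga2. The number of members whose groups did not overlap ran from 1 to 3 in these runs, with Cdkn1b among them each time. Groups that are apart with all libraries stay apart, save for small shifts in scaling, when 1 is left out. For Cdkn1b this outcome and the positive sign in these runs were thus largely set beforehand and add no support. With 2 libraries in a group, 17.6% to 30.5% of all genes did not overlap, against 11.2% with all libraries. With a term for immunoglobulin-rich libraries the value was 0.32 for Cdkn1c and 0.01 for Cdkn2c, and a term for Y-linked transcripts gave -0.11 for Cdkn1a, 0.21 for Cdkn1c, 0.06 for Cdkn2c and 0.11 for Hmga2, each a turn of direction; the cause was not tested. A replicate block gave 0.27 for Cdkn1a, 0.38 for Cdkn1b, 0.21 for Cdkn1c, -1.21 for Cdkn2a, -0.16 for Cdkn2c, 0.14 for Cdkn2d and -0.34 for Hmga2, and called 0 genes. Replicate numbers did not pair the libraries: same-numbered libraries correlated at -0.21, -0.5 and -0.26 in their deviations from the group means. Over all genes edgeR called 0, against 67 in DESeq2, 1 without the count filter and 1 when Y-linked transcripts were a term; 935 genes had an unadjusted p under 0.05 in edgeR and 1114 in DESeq2. Other size factors, a robust fit and leaving out immunoglobulin genes kept every direction. Depth limits Cdkn2b, with 12 and 6 reads per group, and Cdkn2a, with 3 to 74 reads per library.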
